A study of Homo sapiens with 16 samples.

Results

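Expression of 40 genes of mitosis and the spindle checkpoint was examined in 4 breast cell lines, each under 2 conditions. The genes were named from their known role in cell division, and each had to be read by at least 1 probe set assigned to that gene alone. All 40 were measured, among 11963 genes, on 16 Affymetrix U133 2.0 arrays. The study altered RECK, a cell-surface protein that restrains matrix metalloproteinases, in these breast cell lines. The invasive lines MDAMB231 and LM24175 had been stably infected with a construct that expresses RECK constitutively (groups MDAMB231 RECK and LM24175 RECK) or with an Empty Vector control (MDAMB231 EV and LM24175 EV). The poorly invasive lines Hs343T and Hs606T had been transfected with siRNA against RECK (Hs343T siRECK and Hs606T siRECK) or with Scramble siRNA (Hs343T siSCR and Hs606T siSCR). LM24175 is a lung-metastatic line whose parental line is MDAMB231. Each group had 2 arrays, total RNA came from whole cultures, and all lines carry a breast tissue label. The labels do not say whether a stable group is 1 infected population or clone, the time after transfection is not stated in the labels, and it is not stated that arrays of the same group are of different cultures. The p-values therefore reflect how far apart the 2 arrays of each group lie, a spread that may be technical.

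Cells enter mitosis when CDK1 is bound by B-type cyclins and activated by CDC25 phosphatases, and they are held before chromosome separation by the spindle checkpoint, in which BUB1, BUB1B, BUB3, MAD2L1 and the kinase TTK act at unattached kinetochores. Release comes when CDC20 directs the anaphase-promoting complex against securin and cyclin B. Most of these genes are transcribed late in the cell cycle, so in cultured cells their RNA is widely used as a measure of proliferation, and in breast tumours it follows grade.

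Promoters of late cell cycle genes are known for 2 short elements. These are the cell cycle genes homology region, searched here as TTTGAA or TTCGAA, and the CCAAT box bound by NF-Y. RefSeq promoter entries (GRCh38.p14) were matched for 32 of the 40 genes. TTK, BUB3, TPX2, AURKA, TROAP, UBE2C, BIRC5 and FOXM1 had no entry. In the 300 bases from 250 before to 50 after the start, on either strand, TTTGAA or TTCGAA occurred in 22 of the 32 (68.8%), against 16.6% of 27305 promoters in the same table. CCAAT occurred in 26 of 32 (81.2%), against 35.7% of all promoters, and at 2 or more places in 16 (50%), against 11.3%. Both kinds were found in 20 (62.5%), against 6.58%. Of the lists described further down, 28 of 41 other mitosis genes (68.3%) had TTTGAA or TTCGAA, and 28 of 41 had CCAAT. Of DNA replication and G1/S genes 17 of 25 had CCAAT and 2 of 25 (8%) had TTTGAA or TTCGAA. A match is a description of the letters and not evidence of a bound site. The 200 bases before the start are printed for 5 genes, chosen after their values were seen. BUB1B, CCNB2 and CDC20 are genes that fell in the siRNA comparison of Hs343T. MKI67 has both kinds of letters but did not pass there in the fit of all arrays. CDC25B has neither and did not fall. Each sequence reads 5′ to 3′ on the gene's strand, and capitals mark TTTGAA or TTCGAA and CCAAT, or their reverse complements. The regions are chr15:40160869-40161068 (+) for BUB1B, chr15:59104946-59105145 (+) for CCNB2, chr1:43358781-43358980 (+) for CDC20, chr10:128126424-128126623 (-) for MKI67 and chr20:3786751-3786950 (+) for CDC25B.
BUB1B: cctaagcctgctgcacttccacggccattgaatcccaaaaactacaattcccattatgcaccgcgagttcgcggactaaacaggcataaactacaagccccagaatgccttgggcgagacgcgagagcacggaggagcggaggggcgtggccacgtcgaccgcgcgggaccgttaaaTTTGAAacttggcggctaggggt
CCNB2: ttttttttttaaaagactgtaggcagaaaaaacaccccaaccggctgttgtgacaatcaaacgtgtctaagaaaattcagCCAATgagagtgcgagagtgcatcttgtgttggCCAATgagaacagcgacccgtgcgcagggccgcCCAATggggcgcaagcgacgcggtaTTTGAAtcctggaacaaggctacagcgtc
CDC20: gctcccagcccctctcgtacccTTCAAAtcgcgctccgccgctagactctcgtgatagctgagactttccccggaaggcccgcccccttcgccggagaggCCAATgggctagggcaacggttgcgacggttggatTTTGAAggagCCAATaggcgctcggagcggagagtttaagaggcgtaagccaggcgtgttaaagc
MKI67: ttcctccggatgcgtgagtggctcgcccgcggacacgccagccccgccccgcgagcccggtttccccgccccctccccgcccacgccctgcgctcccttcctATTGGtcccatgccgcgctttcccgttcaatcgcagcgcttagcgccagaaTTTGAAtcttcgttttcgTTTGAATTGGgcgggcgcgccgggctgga
CDC25B: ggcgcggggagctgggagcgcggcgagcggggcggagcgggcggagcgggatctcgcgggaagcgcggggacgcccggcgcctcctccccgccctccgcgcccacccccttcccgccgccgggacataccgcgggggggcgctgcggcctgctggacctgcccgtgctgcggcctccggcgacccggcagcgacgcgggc
BUB1B has its TTTGAA 23 bases before the start and no CCAAT in the window. CCNB2 has TTTGAA 29 bases before the start and CCAAT at 54, 87, 120 and 244 bases before it. In MKI67 the second TTTGAA runs into ATTGG, the reverse complement of CCAAT, and shares 1 letter with it.

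Some facts of the series bear on every value below. Values are the authors' log2 probe set levels, and array medians lay between 6.42 and 6.57. RECK went against the siRNA labels. Its log2 level was 6.07 and 5.52 on the Hs343T siSCR arrays and 11.31 and 11.24 on the arrays labelled siRECK, a rise of 5.48 (limma adjusted p = 1.28e-10). In Hs606T it was 8.74 and 8.65 on siSCR and 11.17 and 11.02 on siRECK, a rise of 2.40 (adjusted p = 6.65e-06). These groups are therefore called by their labels, and every direction drawn from them rests on those labels. In the construct comparisons RECK differed by 0.03 in MDAMB231 (adjusted p = 0.962) and by -0.42 in LM24175 (adjusted p = 0.154). Whether its probe set covers the construct's stretch of the transcript was not examined. All 10 fibroblast and mesenchymal markers were above the array median on both arrays of every Hs343T and Hs606T group, against 1 to 3 in the invasive groups. Of 9 epithelial markers, 6 or 7 were above the median in the invasive groups and 2 to 4 in the poorly invasive ones. EPCAM averaged 8.15 to 8.85 in the invasive groups and 4.10 to 4.67 in the poorly invasive ones, while CDH1, the epithelial cadherin, lay between 3.84 and 4.14 in all 8. KRT19 did not separate the lines, at 10.68 and 10.96 in the Hs606T groups against 9.33 and 8.97 in the LM24175 groups. No leukocyte marker of 8 measured was above the median in any group. On 2 arrays the mitosis genes stood apart: replicate 1 of MDAMB231 EV was above replicate 2 for 40 of 40 genes (median 0.47), and replicate 1 of LM24175 RECK for 39 of 40 (median 0.23). Over all genes the deviations of these groups from their means correlated at r = 0.486. Results that rest on them are given with and without them.

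At baseline the mitosis genes separated the invasive from the poorly invasive lines. Between the EV groups of both invasive lines and the siSCR groups of both poorly invasive lines, all 40 genes passed as higher in the invasive lines, by 1.17 to 5.83 on the log2 scale (median 4.09), while the median of all genes was -0.08. Of all genes tested 34.2% were called higher in this comparison. Vector and siRNA controls differ in kind and follow the same split as the lines, so kind of control and kind of line cannot be told apart. The p-values of this comparison measure arrays and not lines. Since MDAMB231 is the parental line of LM24175, the invasive lines are not independent of each other. All 8 arrays of the invasive lines lay above all 8 of the poorly invasive lines for each of the 40, an order seen in 20.4% of all genes. These values come from the brightest probe set of each gene. Of all 66 probe sets of the 40 genes, 63 were called higher and 2 lower, and those of 2 genes differed in sign. In a comparison of whole cultures, fewer dividing cells and less RNA per dividing cell cannot be told apart. The fibroblast markers moved the other way, with 10 of 10 lower in the invasive lines (median -6.84), and their part in the difference was not tested.

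DLGAP5, a microtubule-binding spindle protein, had the largest fitted difference. Its log2 level was 11.25 and 10.66 in MDAMB231 EV, 11.05 and 11.08 in LM24175 EV, 6.68 and 6.82 in Hs343T siSCR, and 3.62 and 3.59 in Hs606T siSCR. The averaged difference was 5.83 ± 0.12 (SE; limma adjusted p = 9.77e-13). Both Hs606T siSCR arrays read under the lower quartile of the array for it, so the size of this difference and its rank rest on low readings. The arrays of the 4 groups formed separate levels, with the invasive lines together at the top and Hs606T below Hs343T. ASPM, which holds spindle poles, was 5.50 higher, and the checkpoint kinase BUB1 was 5.42 higher. BUB1 also read under the lower quartile on both Hs606T siSCR arrays, at 3.98 and 3.65. The smallest differences were those of CDC25B (1.17), BUB3 (1.30) and PLK1 (1.77). CDC25B encodes a phosphatase that activates CDK1 at the centrosome, BUB3 a checkpoint adaptor, and PLK1 a kinase of mitotic entry and centrosome maturation.

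By role, the median difference was 4.53 for the 5 checkpoint genes, 3.68 for the 10 cyclin, CDK1, CDC25 and mitotic kinase genes, 4.02 for the 3 genes of mitotic exit and chromosome separation, and 4.71 for the 5 kinetochore and centromere genes. Over the 8 groups, the group means of a gene spanned between 1.56 and 7.53 (median 5.63). The lowest group was Hs606T siSCR for 24 genes, Hs606T siRECK for 9 and Hs343T siRECK for 7. Lowest and neighbouring groups overlapped for some genes, as given below.

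**Figure D1:**
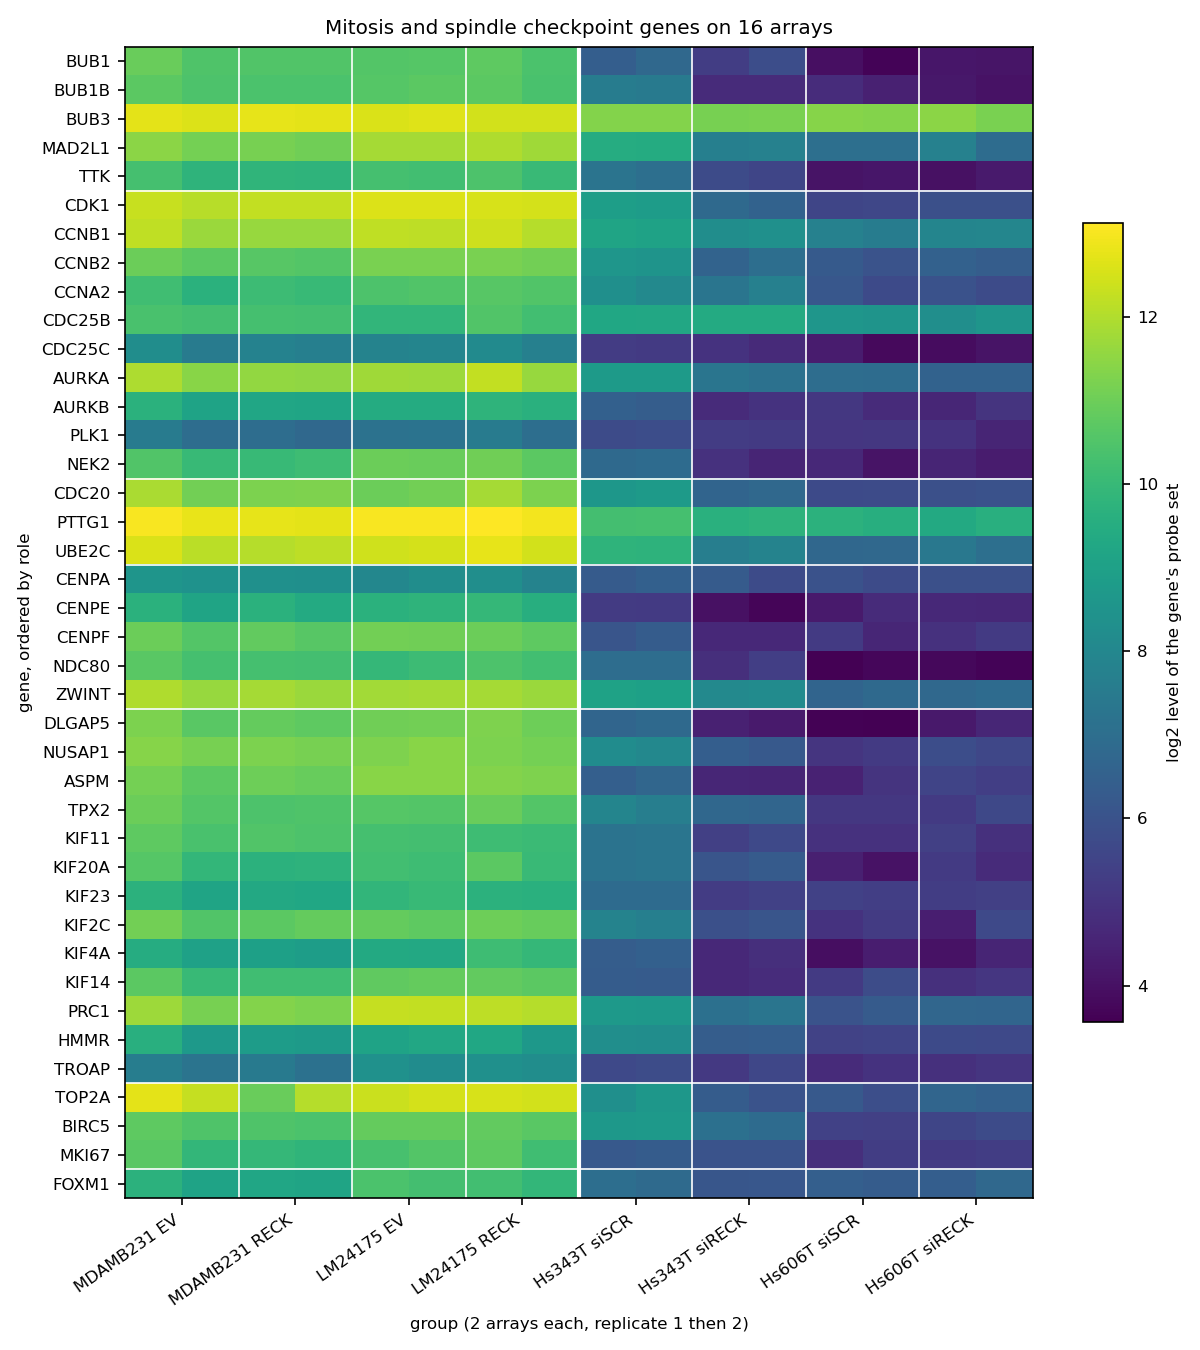
Log2 level of the probe set that reads each of the 40 genes (rows, in blocks by role) on the 16 arrays (columns, 2 per group, replicate 1 then 2), with colour from dark (low) to yellow (high). The 8 columns of the invasive lines on the left are above the 8 of the poorly invasive lines in every row, and Hs343T siSCR is above the other 3 poorly invasive groups in most rows; colours compare arrays within a row, since different probe sets do not share a scale.

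The poorly invasive lines themselves differed. In Hs606T siSCR, 39 of the 40 genes were lower than in Hs343T siSCR, where 18.5% of all genes were called lower. The median difference was -2.31, against -0.05 over all genes. Of the fibroblast markers 5 of 10 were higher in Hs606T siSCR (median 0.49), with FAP at 2.36 and LUM at 1.60, as were 25 of 34 interferon-stimulated genes (median 0.93), and their part was not tested. Of the 39, 23 differed by 2 or more on the log2 scale. NDC80, a kinetochore protein that binds microtubules, was 6.97 and 6.98 in Hs343T siSCR and 3.57 and 3.74 in Hs606T siSCR, a difference of -3.32 (adjusted p = 3.19e-08). CDK1, the kinase that drives mitotic entry, was 8.92 and 8.84 in Hs343T siSCR and 5.58 and 5.62 in Hs606T siSCR (difference -3.28, adjusted p = 8.77e-10). BIRC5, or survivin, a subunit of the chromosomal passenger complex, was 8.66 and 8.69 against 5.42 and 5.38 (difference -3.27, adjusted p = 1.05e-09). The NDC80 readings in Hs606T siSCR were under the lower quartile of the array. In each of these genes the 2 lines were separated by far more than the gap between a group's arrays. BUB3 was the exception, with 11.35 and 11.34 in Hs343T siSCR and 11.38 and 11.34 in Hs606T siSCR. Its difference was 0.01 (95% interval -0.17 to 0.20). With the mean of its probe sets BUB3 passed as higher in Hs606T siSCR (0.21, limma adjusted p = 0.0425). The calls of PLK1 (-0.68), CENPA (-0.53), CENPE (-0.72), FOXM1 (-0.56) and KIF14 (-0.85) were lost when 1 of these arrays was left out, each in at least 1 case.

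Many of these genes read near the bottom of the array in Hs606T. The lower quartile of an array's values was 4.47 to 4.68 across the arrays, and 7 mitosis genes were under it on both Hs606T siSCR arrays, 6 on both Hs606T siRECK arrays and 3 on both Hs343T siRECK arrays. No mitosis gene was under it in Hs343T siSCR or in the invasive groups. The median level over the 40 genes was 7.40 in Hs343T siSCR and 5.24 in Hs606T siSCR, and it lay between 10.45 and 10.76 in the 4 invasive groups.

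Between the EV groups of the invasive lines the differences were small. In LM24175 EV, 6 mitosis genes were higher and 1 lower than in MDAMB231 EV, where 9.87% of all genes were called higher and 10.9% lower. FOXM1, a transcription factor of late cell cycle genes, was 9.72 and 9.11 in MDAMB231 EV and 10.40 and 10.27 in LM24175 EV (difference 0.92, adjusted p = 0.00343). TROAP, a spindle-associated protein, was 7.62 and 7.25 against 8.41 and 8.20 (difference 0.87, adjusted p = 0.00335). PRC1, which bundles microtubules of the central spindle, was 11.71 and 11.17 against 12.27 and 12.23 (difference 0.81, adjusted p = 0.00234). The LM24175 arrays were above both MDAMB231 arrays for all 3, although the MDAMB231 arrays were themselves apart. In a fit of the compared arrays alone FOXM1 and PRC1 lost their call (limma adjusted p = 0.0558 and 0.0571). NEK2 (0.70), KIF23 (0.48) and CDK1 (0.41) also passed as higher in the fit of all arrays, and they too lost their call in the fit of the compared arrays alone. CDC25B passed as lower, with 10.39 and 10.28 in MDAMB231 EV and 9.87 and 9.84 in LM24175 EV (difference -0.48, adjusted p = 0.00737). Without replicate 1 of MDAMB231 EV the count was 12 (11 higher and 1 lower), and without replicate 2 it was 6 (3 higher and 3 lower). CDK1, KIF23 and NEK2 lost their call without replicate 2 of MDAMB231 EV and without either LM24175 EV array. CDC25B lost its call without replicate 2 of LM24175 EV (-0.47, adjusted p = 0.0539).

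Of the 4 treatment comparisons, the siRNA comparison in Hs343T changed the most mitosis genes. On the arrays labelled siRECK, 33 of the 40 genes fell and none rose, where 17.4% of all genes were called lower and 12.0% higher. The median difference was -1.56, against -0.06 over all genes. Of the 33, 28 fell by at least 1 on the log2 scale and 7 by at least 2. Both siRECK arrays were below both siSCR arrays for 39 of the 40, an order seen in 40.0% of all genes. RECK RNA was higher and not lower on these arrays. All 34 measured interferon-stimulated genes also rose on them (median 6.17), and the log2 ratio of 3′ to 5′ signal for GAPDH was 0.43 and 0.48 on siRECK against 0.36 and 0.39 on siSCR. Of the cell type markers, 3 of 9 epithelial genes fell (KRT18 by 1.08, KRT19 by 0.92 and KRT8 by 0.64), as did 2 of 10 fibroblast genes (FAP by 0.99 and PDGFRA by 0.94), 1 of 8 leukocyte genes (CD163 by 0.43) and 1 of 6 endothelial genes (PECAM1 by 0.64), and none rose. The part of any of these in the result was not tested.

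The spindle checkpoint genes fell in 4 of 5 cases (median -1.51). BUB1B, the checkpoint kinase-like protein BubR1 that restrains CDC20, fell most of the 40. Its log2 level was 7.59 and 7.48 on siSCR and 4.75 and 4.76 on siRECK, a difference of -2.78 ± 0.14 (SE), or 6.89-fold lower (95% interval 5.59 to 8.48; limma adjusted p = 1.70e-08). The 4 arrays fell into 2 tight pairs with no overlap, and the siRECK pair was within the Hs606T range, where the siSCR arrays were 4.80 and 4.44. MAD2L1, which binds and holds CDC20, fell by 1.73, the kinase TTK by 1.51 and BUB1 by 1.06. For BUB1 only the brightest of 5 probe sets passed, and the others differed by -0.37 to 0.09, so its fall depends on the probe set. With the mean of its probe sets BUB1 differed by -0.28 (adjusted p = 0.137). BUB3 did not pass, with 11.35 and 11.34 on siSCR and 11.16 and 11.21 on siRECK (difference -0.16, 95% interval -0.35 to 0.03).

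Among cyclins, CDK1, CDC25 phosphatases and mitotic kinases, 7 of 10 fell (median -1.18). CDK1 was 8.92 and 8.84 on siSCR and 6.85 and 6.58 on siRECK, a fall of 2.16 ± 0.10 (SE; adjusted p = 1.09e-08), and all 3 of its probe sets fell. NEK2, a kinase that separates centrosomes, fell by 2.12 on its brighter probe set, while its other probe set differed by -0.19 and did not pass. AURKA, the spindle pole kinase, fell by 1.56, and AURKB, the kinase of the chromosomal passenger complex, by 1.58. The cyclins all fell, by sizes that were not tested against each other. CCNB2 fell by 1.73, CCNB1 by 0.79 and CCNA2 by 0.68, with 95% intervals of the difference of -2.03 to -1.42, -1.13 to -0.46 and -1.11 to -0.25. The CCNA2 call was lost without siSCR replicate 1 (-0.55, adjusted p = 0.142) and without siRECK replicate 1 (-0.45, adjusted p = 0.184), although its second probe set fell by 1.71.

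Of the genes of mitotic exit and chromosome separation, 3 of 3 fell (median -1.98). UBE2C, the ubiquitin-conjugating enzyme of the anaphase-promoting complex, was 9.77 and 9.73 on siSCR and 7.66 and 7.83 on siRECK, a fall of 2.01 (adjusted p = 9.13e-07). CDC20, the activator of that complex, was 8.64 and 8.79 against 6.66 and 6.81, a fall of 1.98. PTTG1, or securin, fell by 0.59, the smallest fall that passed among the 33. In the first 2 of these genes the siRECK arrays were about 4-fold below the siSCR arrays, at 4.02-fold and 3.95-fold.

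At kinetochore and centromere, 4 of 5 genes fell (median -1.36). NDC80 fell by 1.86, CENPF by 1.53, the motor protein CENPE by 1.36, and ZWINT, which links checkpoint proteins to the kinetochore, by 0.93. CENPE was 5.23 and 5.20 on siSCR and 4.01 and 3.69 on siRECK, so that its siRECK arrays were under the lower quartile of the array. CENPA, the centromeric histone, was 6.33 and 6.48 on siSCR and 6.31 and 5.75 on siRECK (difference -0.37, adjusted p = 0.157), and its siRECK arrays were further apart than its siSCR arrays. Without siRECK replicate 1 CENPA differed by -0.65.

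Spindle motors and spindle proteins fell in 12 of 13 cases (median -1.68). DLGAP5 was 6.68 and 6.82 on siSCR and 4.44 and 4.25 on siRECK, a fall of 2.41 ± 0.17 (SE; adjusted p = 5.86e-07). For DLGAP5 and ASPM both siRECK arrays read under the array's lower quartile, so the size of their fall rests on low readings. ASPM fell by 2.04, the hyaluronan receptor and spindle protein HMMR by 1.86, and the microtubule bundler NUSAP1 by 1.81. Kinesins fell by 1.05 to 1.75: KIF2C, which depolymerises microtubules, by 1.75, KIF11, which pushes spindle poles apart, by 1.72, KIF4A by 1.68, KIF14 by 1.61, KIF23, a component of the central spindle, by 1.57, and KIF20A by 1.05. The KIF20A call was lost without siRECK replicate 1 (-0.92, adjusted p = 0.0537). PRC1 fell by 1.53 and TPX2, the activator of AURKA, by 1.05. TROAP was 5.69 and 5.79 on siSCR and 5.15 and 5.61 on siRECK (difference -0.37, adjusted p = 0.142), with a gap between its siRECK arrays larger than its distance to siSCR. In a fit with a replicate block TROAP passed as lower (-0.37, limma adjusted p = 0.0399). Without siRECK replicate 2 it differed by -0.6.

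TOP2A, the topoisomerase that untangles sister chromosomes, was 8.33 and 8.62 on siSCR and 6.36 and 6.01 on siRECK, a fall of 2.29 ± 0.29 (SE), or 4.91-fold (95% interval 3.16 to 7.61; adjusted p = 6.93e-05). Its second probe set fell by 2.41. BIRC5 fell by 1.68, on all 3 of its probe sets, and FOXM1 fell by 0.82. MKI67, the gene of the Ki-67 proliferation marker, did not pass. It was 6.23 and 6.35 on siSCR and 6.0 and 6.0 on siRECK (difference -0.29, 95% interval -0.82 to 0.23, adjusted p = 0.420), and its 4 probe sets differed in sign, from -0.52 to 0.10. The siRECK arrays were both lower, but by less than the fall of any gene that passed in the fit of all arrays. In a fit of the compared arrays alone MKI67 passed as lower (-0.29, limma adjusted p = 0.0499).

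The remaining genes without a call were 3 of the CDC25 and kinase group. CDC25B was the only gene of the 40 with both siRECK arrays above both siSCR arrays, an order seen in 25.6% of all genes, at 9.42 and 9.39 against 9.27 and 9.30 (difference 0.12, 95% interval -0.12 to 0.35). CDC25C, the phosphatase that activates CDK1 at mitotic entry, was 5.25 and 5.21 on siSCR and 4.98 and 4.70 on siRECK (difference -0.38, adjusted p = 0.227). PLK1 was 5.75 and 5.81 on siSCR and 5.27 and 5.19 on siRECK (difference -0.55, adjusted p = 0.0559). PLK1 was the nearest to passing, and it did pass in 4 of the alternative fits.

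**Figure D2:**
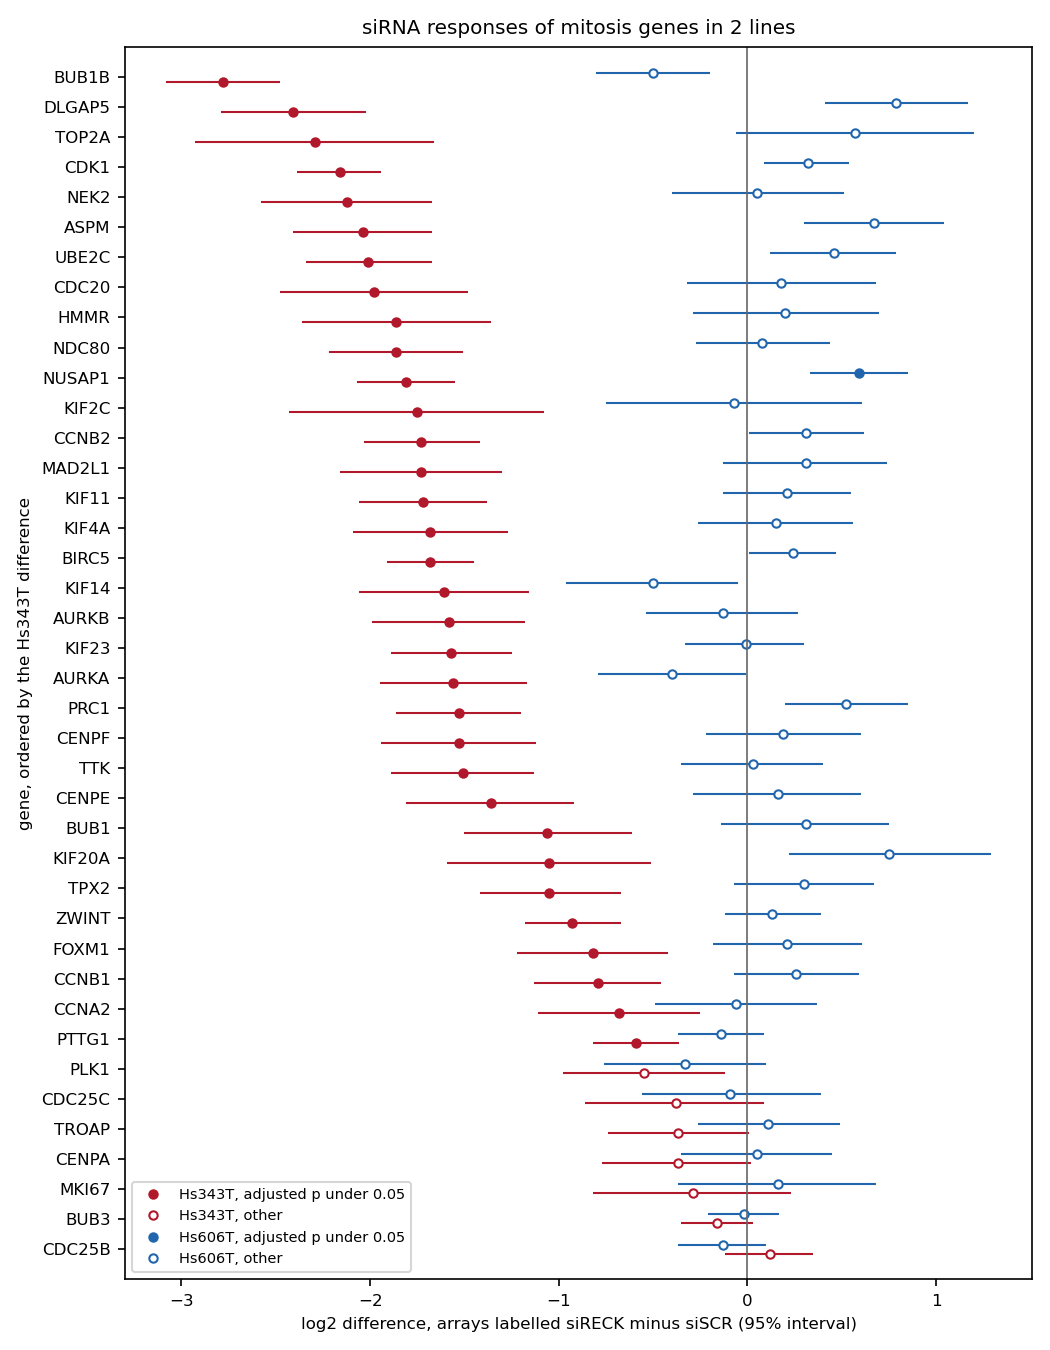
Log2 difference, arrays labelled siRECK minus siSCR, with 95% interval from the limma fit for each of the 40 genes in Hs343T (red) and Hs606T (blue), ordered by the Hs343T value; filled points have an adjusted p under 0.05. In Hs343T 33 points are filled and all lie left of 0, down to -2.78 for BUB1B, while in Hs606T the filled point is NUSAP1 at 0.59.

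Members with TTTGAA or TTCGAA in the promoter window fell in 19 of 22 cases (median -1.72) and those without in 8 of 10 (median -0.92). With CCAAT 23 of 26 fell (median -1.59), and without it 4 of 6 (median -1.56). These counts describe 32 genes with a promoter entry and were not tested. Of the 5 genes printed above, MKI67 carries both kinds of letters and did not pass in the fit of all arrays. CDC25B carries neither and read no lower on siRECK. Other genes with neither did fall, KIF2C by 1.75 and CENPE by 1.36, while CDC25C, also with neither, differed by -0.38 and did not pass.

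In Hs606T few of these genes passed under the same labels. On the siRECK arrays 1 of 40 was higher and none lower, where 0.811% of all genes were called higher and 0.385% lower. At an unadjusted p under 0.05 from limma, 12 of the 40 passed, against 11.5% of all genes. The median difference was 0.16, against 0 over all genes, and both siRECK arrays were above both siSCR arrays for 15 genes and below for 4, orders seen in 24.0% and 24.8% of all genes. NUSAP1 was 5.03 and 5.20 on siSCR and 5.81 and 5.59 on siRECK, a rise of 0.59 ± 0.12 (SE; adjusted p = 0.0395). The call was lost without any of the 4 arrays, with adjusted p from 0.0547 to 0.311. Its second probe set differed by -0.28 and did not pass, and with the mean of its probe sets the difference was 0.15 (adjusted p = 0.781). DLGAP5 was 3.62 and 3.59 on siSCR and 4.21 and 4.58 on siRECK (difference 0.79, adjusted p = 0.0573). Both siSCR values were under the lower quartile of their own arrays. Of the siRECK values 4.21 was under it (4.54), while 4.58 lay at that of its array (4.58). BUB1B went the other way, with 4.80 and 4.44 on siSCR and 4.18 and 4.05 on siRECK (difference -0.50, adjusted p = 0.138). Of the interferon-stimulated genes 24 of 34 rose in Hs606T (median 1.16), as did the epithelial marker KRT18 (0.86), and their part in the result was not tested.

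The difference between the lines was itself tested. The siRNA response of Hs606T minus that of Hs343T was above 0 and passed for 32 of the 40 genes and was below 0 for none that passed, where 11.6% of all genes were called above 0 and 8.72% below. The median was 1.62, against 0.04 over all genes. DLGAP5 had the largest difference (3.19 ± 0.25 SE, adjusted p = 2.18e-06), then TOP2A (2.87) and ASPM (2.71). The sizes for DLGAP5 and ASPM rest on readings under the lower quartile, for DLGAP5 in Hs606T siSCR and Hs343T siRECK and for ASPM in Hs343T siRECK. BUB1, TTK, KIF4A and NDC80 were under the lower quartile in both Hs606T groups, so little room was left to read a fall there. BUB1B was under it in Hs606T siRECK, KIF20A in Hs606T siSCR and CENPE in Hs343T siRECK. These genes are counted where both arrays of a group were under it, and single arrays were under it for others, such as NEK2, KIF2C and CENPF. CCNA2 fell in Hs343T, and its difference between lines depended on the probe set. It did not pass on the brighter probe set (0.62, adjusted p = 0.152), but it passed on the other (1.74, adjusted p = 0.000828 over all probe sets) and with the mean of both (1.18, adjusted p = 0.00306). The calls of KIF2C (1.68), KIF14 (1.10), PTTG1 (0.45) and FOXM1 (1.03) were lost when 1 array was left out, in at least 1 case each. That of BUB1 was lost with the mean of its probe sets (0.23, adjusted p = 0.472). BUB3, CDC25B, CDC25C, PLK1, CENPA, MKI67 and TROAP did not pass here either. Since Hs606T started lower, the 2 responses do not start from the same level. Set side by side with no test, the Hs343T siRECK arrays were still above both Hs606T siSCR arrays for 27 genes, below for 4 and overlapping for 9, where 34.8% of all genes were above and 36.6% below. The median difference was 0.67, against 0 over all genes.

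**Figure D3:**
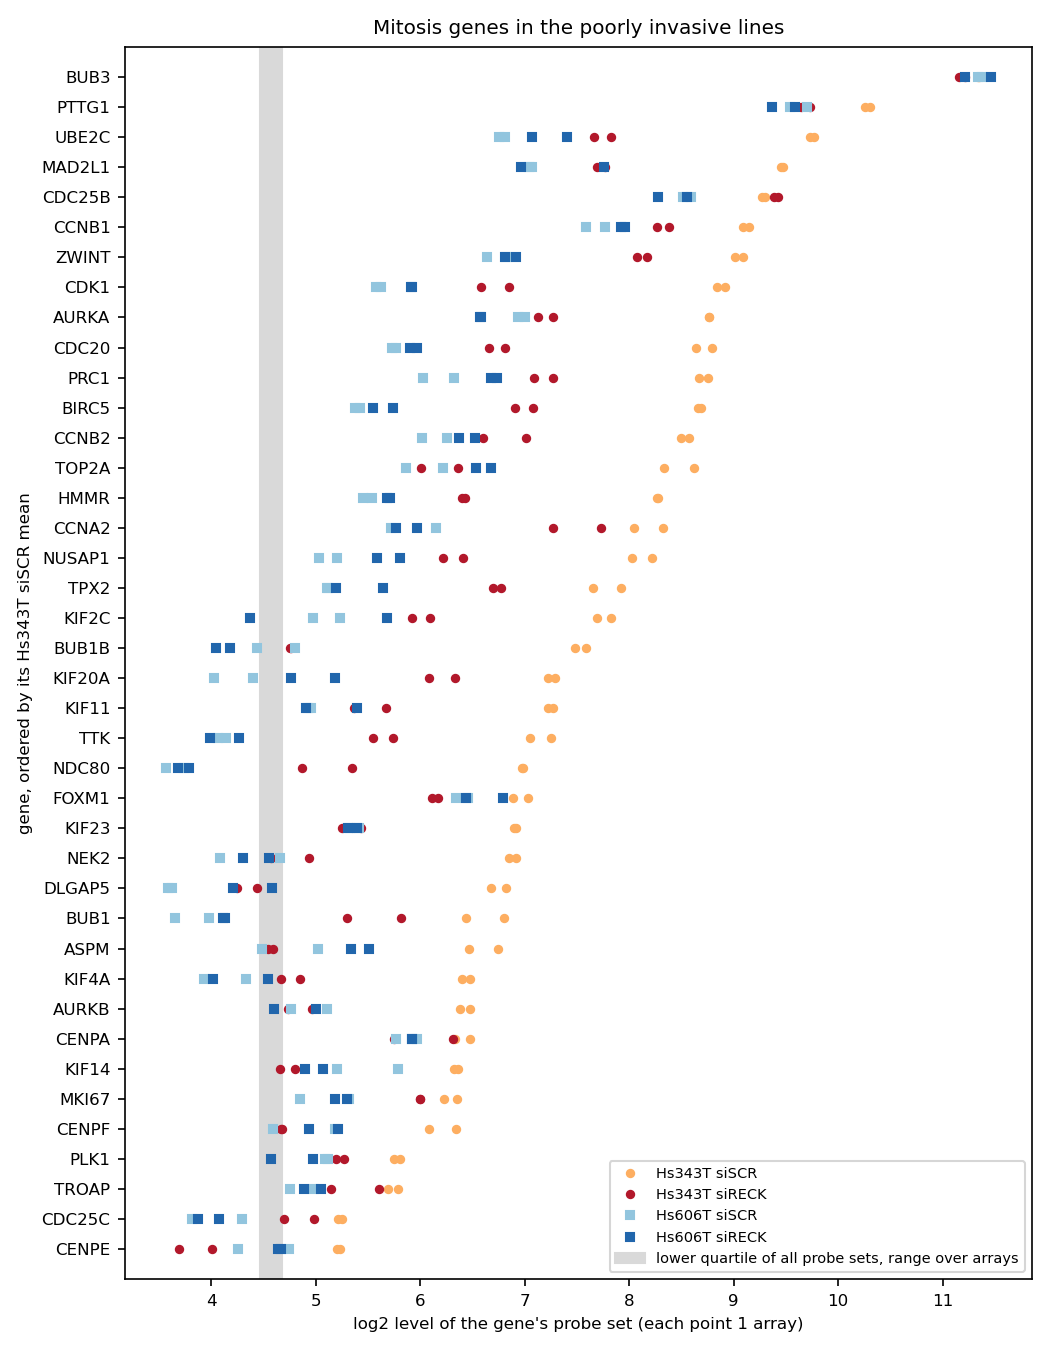
Log2 level of each of the 40 genes (rows, ordered by the Hs343T siSCR mean) on the 8 arrays of the poorly invasive lines, 1 point per array; the grey band is the range over arrays of the lower quartile of all probe sets, 4.47 to 4.68. The Hs343T siSCR points lie to the right in nearly all rows, and the Hs343T siRECK points have moved toward the 2 Hs606T groups, which overlap in many rows.

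Few mitosis genes passed between the construct and vector arrays of the invasive lines. RECK RNA itself did not pass in these comparisons, as given above. In MDAMB231 none of the 40 genes passed in either direction by limma, where 0.226% of all genes were called higher and 0.0502% lower. At an unadjusted p under 0.05 from limma, 1 of the 40 passed, against 11.6% of all genes, and the alternative normalizations and fits of all arrays also gave 0. Of the 40 differences 35 were below 0, with a median of -0.17 and a range of -1.01 to 0.14. This shift rests on 1 array. MDAMB231 EV replicate 1 was above replicate 2 for all 40 genes, where 53.4% of all genes were. Without that array the median difference was 0.05 and 0 genes passed, and without replicate 2 it was -0.41 and 3 passed as lower, namely CCNB1 (-0.56), KIF23 (-0.42) and HMMR (-0.79). The median thus took either sign with the control array that was kept. TOP2A had the lowest difference, with 12.73 and 12.29 in EV and 10.92 and 12.07 in RECK (difference -1.01, adjusted p = 0.207). RECK replicate 1 alone was low for it, its second probe set differed by -0.18, and it passed where RECK replicate 2 was left out (-1.58, adjusted p = 0.00585).

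In LM24175, 1 gene of the 40 passed as higher and none as lower, where 3.44% of all genes were called higher and 3.27% lower. The median difference was 0.01. CDC25B was 9.87 and 9.84 in EV and 10.54 and 10.24 in RECK, a rise of 0.54 ± 0.11 (SE; adjusted p = 0.0119). Both RECK arrays were above both EV arrays, and the gap between the RECK arrays was larger than that between the EV arrays. Its call was lost without replicate 1 of LM24175 RECK (0.39, adjusted p = 0.0933), without replicate 1 of LM24175 EV (0.55, adjusted p = 0.0759), without replicate 2 of LM24175 EV (0.52, adjusted p = 0.0957) and in a fit of these 4 arrays alone (adjusted p = 0.117). KIF4A, a kinesin of chromosome arms and the central spindle, was 9.37 and 9.35 in EV and 10.16 and 9.93 in RECK (difference 0.69, adjusted p = 0.0512), and it passed in several alternative fits. Without replicate 1 of both MDAMB231 EV and LM24175 RECK the median was -0.14, and the gene that passed was HMMR, lower by 0.54 (adjusted p = 0.00919). CDC25B is also the gene that was lower in LM24175 EV than in MDAMB231 EV, and the 2 comparisons share the LM24175 EV arrays.

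The construct response of LM24175 minus that of MDAMB231 passed for none of the 40 in the fit of all arrays (limma), where 1.65% of all genes were called higher and 1.99% lower, and 4 of the 40 had an unadjusted p under 0.05, against 18.9% of all genes. The median was 0.18 and the lowest adjusted p was 0.0593. Without replicate 2 of MDAMB231 EV 4 genes passed, and without both arrays named above 1 passed, HMMR, at -0.59 with the median at -0.21. The alternative normalizations and fits passed at most 2, CDC25B and KIF4A.

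**Figure D4:**
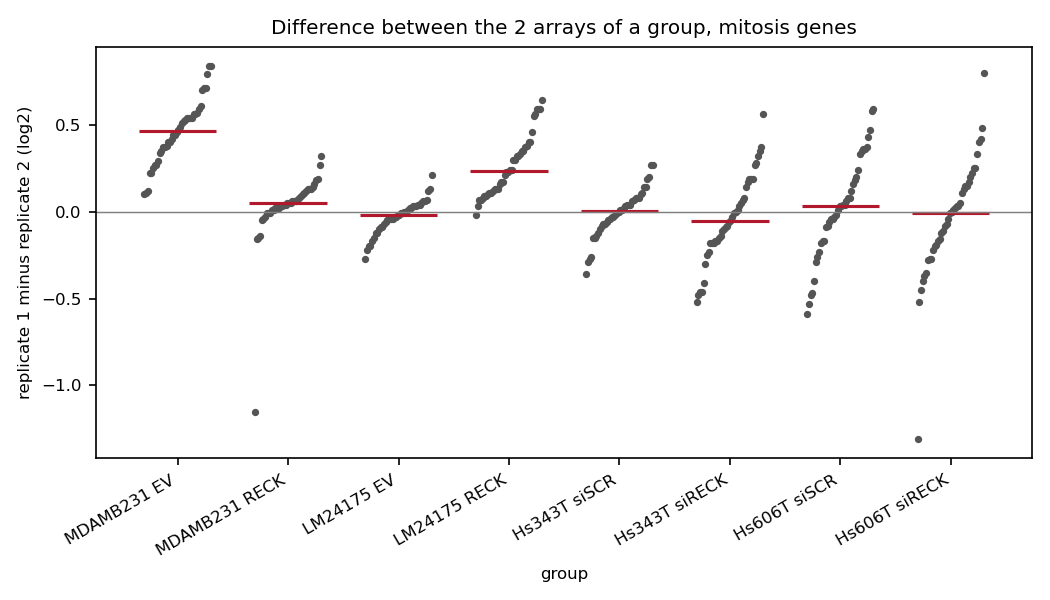
Log2 level on replicate 1 minus replicate 2 for each of the 40 genes (points) in each of the 8 groups, with the median as a red line. All 40 points of MDAMB231 EV lie above 0 (median 0.47) and 39 of 40 of LM24175 RECK (median 0.23), while the medians of the other 6 groups lie between -0.06 and 0.05.

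Other genes of the cell cycle were read from lists of their own. Of 48 other mitosis genes measured (of 55 listed), 28 were lower on the Hs343T siRECK arrays and none higher (median -0.71), among them HJURP, the chaperone of CENPA (-2.02), the kinetochore gene SPC25 (-1.98), the kinase PBK (-1.92) and the kinesin KIF18B (-1.91). Of 30 DNA replication and G1/S genes (of 31 listed), 23 were lower and none higher (median -0.73), led by the G1 kinase CDK4 (-1.53), GINS2 (-1.52), MCM10 (-1.51) and RFC4 (-1.35). In Hs606T 1 gene of the first list passed, ESPL1, the separase, at -0.59, and none of the second.

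Genes that act on the mitosis genes' products or promoters passed in both directions in Hs343T, where 12.0% of all genes were higher and 17.4% lower. Of 9 anaphase-promoting complex genes (of 14 listed), 4 were lower and 1 higher (median -0.04). The inhibitor FBXO5 fell by 1.12 and CDC23 by 0.54, while CDC27 rose by 0.50. Of 10 cohesin genes and protectors 3 were higher and 3 lower, with MAU2 at 0.54 and STAG1 at -0.44. Of 18 DREAM, MuvB and E2F regulators (of 22 listed), 2 were higher and 2 lower (median -0.07), shares no larger than those of all genes. NFYA, a subunit of NF-Y, rose by 0.38, RB1 rose by 0.36, TFDP1 fell by 0.61 and E2F3 fell by 0.43. Of 16 CDK inhibitors and G2 arrest genes (of 19 listed), 6 were higher and 2 lower. CHEK2 rose by 1.35, GADD45B by 1.08 and GADD45A by 1.01, while CDKN3, a phosphatase that is itself a late cell cycle gene, fell by 1.54. The other genes that rose were the CDK inhibitors CDKN2D by 0.97, CDKN2A by 0.57 and CDKN1B by 0.38 (limma adjusted p = 7.68e-05, 0.00539 and 0.00498). CCNG1 was the other gene that fell, by 0.82. GADD45A (0.53) and GADD45B (0.51) also passed as higher in Hs606T. CDKN1A, the p21 inhibitor, differed by -0.31 in Hs343T and did not pass (adjusted p = 0.420).

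**Figure D5:**
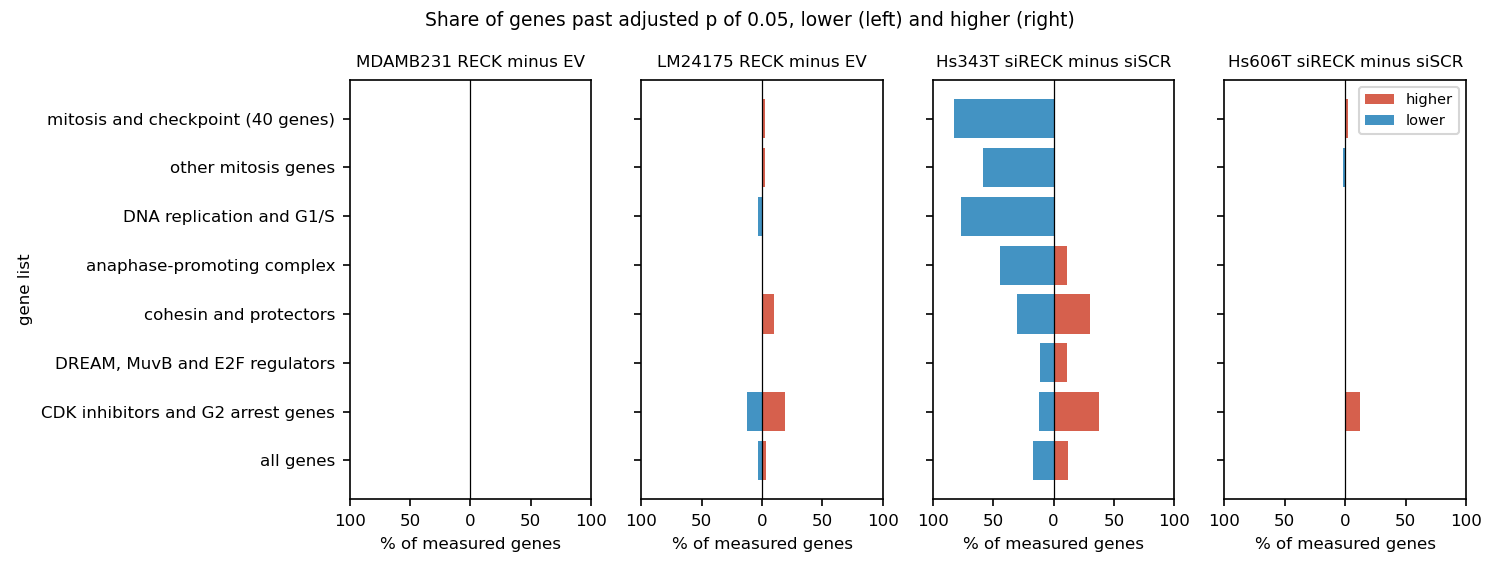
Share of the measured genes of each list with an adjusted p under 0.05, lower to the left (blue) and higher to the right (red), in the 4 treatment comparisons, with all 11963 genes as the bottom bar. The long bars to the left are in Hs343T, for the 40 mitosis genes (33 lower), the other mitosis genes (28 of 48) and the DNA replication and G1/S genes (23 of 30).

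The array reads the 40 genes with 66 probe sets, and 26 genes have a single one. In Hs343T 44 of the 66 fell and none rose, where 17.4% of all genes, read by their brightest probe set, were called lower and 12.0% higher. Probe sets of a gene differed in sign there for BUB1, BUB3 and MKI67. CENPA, FOXM1 and PTTG1 are read by probe sets whose names mark possible cross-hybridisation, so related transcripts may add to their values.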

How the data were processed

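Total RNA was labelled and read on 16 Affymetrix arrays, 2 in each of 8 groups, grouped by the sample titles. The authors deposited log2 values per probe set, made in Partek per the submitters' processing notes. Its version and the summary, background correction and scaling of probe sets were not given in the sources used here. Arrays give no counts, so their number limits the precision.

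Of 22277 probe sets, 19070 carried 1 gene symbol, 1043 several and 2164 none in the platform annotation used. Control probe sets (62) were left out, and 19064 were used for 11963 genes. A gene with several probe sets was represented by the brightest on average over all arrays. Symbols were checked through gene identifiers in a RefSeq table, where 19052 probe sets matched and 0 symbols changed. No other normalization or filter was applied. Differences were tested with limma 3.58.1 in R 4.3.3, in 1 linear model of 8 group means with no covariate, moderated by eBayes (residual degrees of freedom 8, prior 3.72). Tests are 2-sided, and p-values were adjusted by Benjamini-Hochberg over all 11963 genes, with a threshold of 0.05. Comparisons between lines are contrasts of the same model, and a difference of responses is an interaction contrast.

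The members, the other gene lists and the tests were chosen with earlier results of these data known. Every member is reported, with array values for the 3 passing members of the largest change in each direction of a line comparison. Array values are also given for members that did not follow the majority. Of other lists up to 4 passing genes are named, except that all passing CDK inhibitors and G2 arrest genes are named in Hs343T. Same-numbered arrays of a line did not deviate together (r from -0.05 to 0.011), so the numbers were not taken as pairs. Across the invasive lines, those of MDAMB231 EV and LM24175 RECK did (r = 0.486), and both replicate 1 arrays were left out as an alternative. Alternatives were quantile normalization, median centring, the mean of probe sets, leaving out the dimmest 0.25 of genes, eBayes with trend and robust, a fit of the compared arrays alone, a replicate block, a 1.5-fold minimum and leaving out arrays. Promoter letters were searched and figures drawn in Python 3.11.15.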

Additional observations from a re-analysis of the deposited data

Results flagged for a closer look

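For 32 of the 40 mitosis genes the siRNA response differed between the poorly invasive lines, by the interaction contrast in limma with an adjusted p under 0.05. The values are the log2 response in Hs606T minus that in Hs343T, arrays labelled siRECK against siSCR, and all are above 0. Of spindle motors and spindle proteins these were DLGAP5 (3.19), ASPM (2.71), NUSAP1 (2.40), HMMR (2.07), PRC1 (2.06), KIF11 (1.93), KIF4A (1.83), KIF20A (1.80), KIF2C (1.68), KIF23 (1.56), TPX2 (1.35) and KIF14 (1.10). Of cyclins and kinases they were CDK1 (2.48), NEK2 (2.18), CCNB2 (2.04), AURKB (1.45), AURKA (1.16) and CCNB1 (1.05). Of the checkpoint they were BUB1B (2.29), MAD2L1 (2.04), TTK (1.54) and BUB1 (1.36). Of exit and separation they were UBE2C (2.46), CDC20 (2.16) and PTTG1 (0.45), and of the kinetochore NDC80 (1.95), CENPF (1.72), CENPE (1.52) and ZWINT (1.06). TOP2A (2.87), BIRC5 (1.92) and FOXM1 (1.03) complete the list. For DLGAP5, ASPM, BUB1, BUB1B, TTK, KIF4A, NDC80, KIF20A and CENPE both arrays of at least 1 group read under the array's lower quartile. Their sizes rest in part on these low readings. Single arrays read under it for other genes too, such as NEK2 (4.08 in Hs606T siSCR and 4.57 in Hs343T siRECK), KIF2C (4.37 in Hs606T siRECK) and CENPF (4.59 in Hs606T siSCR). All 34 interferon-stimulated genes measured passed the same contrast in the other direction (median -4.32), and their part was not tested. No mitosis gene passed the like contrast of the construct responses in the fit of all arrays, and groups of 2 arrays allowed no search for single outlying samples.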

How the results depend on the processing

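The numbers of mitosis genes that passed held within 1.5 times the reported count in every alternative for 4 comparisons, namely siRNA in Hs343T (32 to 35), its difference between the poorly invasive lines (28 to 32), the baseline of those lines (34 to 40) and invasive against poorly invasive (40). The count of 40 at the baseline of the poorly invasive lines came with the mean of probe sets and includes BUB3, which passed there as higher. Single calls kept their direction in all 2172 alternative values, and 84 of these lost the call. The small counts moved. For LM24175 RECK minus EV the count was 2 with quantile normalization, median centring, the mean of probe sets, dim genes left out, eBayes with trend and robust or a replicate block, and 0 with only the arrays compared or a 1.5-fold minimum. For Hs606T siRECK minus siSCR it was 2 with quantile normalization, dim genes left out or trend and robust, and 0 with median centring, the mean of probe sets, only the arrays compared or the replicate block. For the construct response between the invasive lines it was 1 with median centring, the replicate block or without both co-deviating arrays, and 2 with dim genes left out or trend and robust. For LM24175 EV minus MDAMB231 EV it was 2 with only the arrays compared, 3 with the replicate block (CDC25B lost its call, adjusted p = 0.108), 4 with the 1.5-fold minimum and 15 without both co-deviating arrays. Leaving out 1 array at a time gave 0 to 3 for MDAMB231 RECK minus EV, 0 to 1 for LM24175 RECK minus EV, 32 to 34 for Hs343T, 0 to 1 for Hs606T, 0 to 4 for the construct response, 28 to 32 for the siRNA response, 3 to 12 for LM24175 EV minus MDAMB231 EV, 34 to 36 for Hs606T siSCR minus Hs343T siSCR and 40 for invasive against poorly invasive. A group left with 1 array is assumed to vary like the other groups. With the replicate block the Hs343T count was 35. Median centring changed the split over all genes in Hs343T to 1602 higher and 1678 lower, from 1432 and 2079. The causes of these shifts were not tested. In Hs606T siSCR 7 of the 40 genes read under the array's lower quartile on both arrays.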
